A study of Homo sapiens with 148 samples.

Results

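The ZIC genes encode zinc finger transcription factors, and 4 of them, ZIC1, ZIC2, ZIC4 and ZIC5, were followed while H9 embryonic stem cells (hESCs) were turned into pancreatic islet organoids. The members were found by gene name in a table of RNA abundance with 49085 names, and each of the 4 had a single entry in it. ZIC2 and ZIC5 were present at every stage, with ZIC2 highest in definitive endoderm, whereas ZIC1 and ZIC4 were near or at 0 until the pancreatic progenitor stage and then became the larger share of ZIC RNA.

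The study induced wild-type H9 cells, an established hESC line, to form spheroids and then pancreatic cells, and it asked how chromatin loops anchored by the protein CTCF change on the way. RNA-seq covered undifferentiated hESCs, definitive endoderm (DE, day 4), primitive gut tube-like cells (PGT, day 7), pancreatic progenitors (PP, day 14), organoids with β-like cells (SC-β, day 35), and a stage that the labels name PH without defining it, with 2 replicates at each stage. Apart from the hESCs, every group carries the label of pancreatic differentiation. The media held Activin A, CHIR99021 and Y27632 on the way to DE, then KGF, then KGF with Sant1, retinoic acid, LDN193189, PdBU and Y27632 on the way to PP, and afterwards Sant1, retinoic acid, the compound XXI, betacellulin, Alk5i II and T3 on the way to SC-β organoids. Sant1 inhibits Smoothened, the membrane protein that switches on Hedgehog signalling. All cells derive from 1 line, and the medium of the PH cells is not given in the sources used here. PH is therefore compared with the other stages below without a place in time.

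Values are in TPM, in which reads are corrected for the length of the transcript and for the total of the sample, so levels of different genes may be set beside each other. The deposited column of each stage is the authors' mean of its 2 replicates, so no value below has an error, a depth or a test, and every difference is between 2 means. Ratios are log2((TPM + 1) / (TPM + 1)), which understate the change of low genes, and "rose" and "fell" are used only from 2-fold on that scale. In these bulk samples, fewer cells of a type and less RNA per cell cannot be told apart.

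ZIC proteins share a block of C2H2 zinc fingers with the GLI factors, the nuclear effectors of Hedgehog signalling, and they bind DNA and act as activators or repressors. ZIC2 is known from primed pluripotent cells and from the early neural plate, and loss of one copy of it causes holoprosencephaly, a failure of the forebrain to divide. ZIC1 and ZIC4 are known from the dorsal neural tube, the neural plate border, the somites and the cerebellum, and deletion of both has been tied to Dandy-Walker malformation of the cerebellum. ZIC5 is known from the dorsal neural folds and neural crest.

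The 4 genes lie in 2 head-to-head pairs. In GENCODE version 44 on hg38, ZIC4 (ENSG00000174963.18) covers positions 147386046 to 147406809 of chromosome 3 on the reverse strand and ZIC1 (ENSG00000152977.10) covers 147393422 to 147510293 on the forward strand. Because some ZIC1 transcripts begin inside ZIC4, the annotated genes overlap by 13388 bases on opposite strands. ZIC5 (ENSG00000139800.9) covers 99962964 to 99971767 of chromosome 13 on the reverse strand and ZIC2 (ENSG00000043355.12) covers 99981784 to 99986765 on the forward strand, without overlap. The chosen RefSeq transcription start sites are 2822 bases apart in the ZIC4 and ZIC1 pair and 9875 bases apart in the ZIC5 and ZIC2 pair. The canonical ZIC1 transcript has 3 exons and 5260 bases, that of ZIC2 3 exons and 2963 bases, that of ZIC4 5 exons and 4014 bases, and that of ZIC5 2 exons and 4497 bases.

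The promoters of the 4 genes are shown because the pairs had different levels across the stages and because the members of a pair are divergently transcribed. Each is the RefSeq sequence (GRCh38.p14) from 250 bases before to 50 bases after the start, 5′ to 3′ on the strand of the gene, with the CG dinucleotides in capitals.
ZIC1 chr3:147409115-147409414 (forward strand): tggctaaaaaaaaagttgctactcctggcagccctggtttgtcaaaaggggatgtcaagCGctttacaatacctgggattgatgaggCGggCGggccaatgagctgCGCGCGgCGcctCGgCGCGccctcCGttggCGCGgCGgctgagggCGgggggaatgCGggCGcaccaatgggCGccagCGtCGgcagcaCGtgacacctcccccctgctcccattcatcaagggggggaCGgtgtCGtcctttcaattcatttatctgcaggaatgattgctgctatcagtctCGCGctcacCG
ZIC4 chr3:147406494-147406793 (reverse strand): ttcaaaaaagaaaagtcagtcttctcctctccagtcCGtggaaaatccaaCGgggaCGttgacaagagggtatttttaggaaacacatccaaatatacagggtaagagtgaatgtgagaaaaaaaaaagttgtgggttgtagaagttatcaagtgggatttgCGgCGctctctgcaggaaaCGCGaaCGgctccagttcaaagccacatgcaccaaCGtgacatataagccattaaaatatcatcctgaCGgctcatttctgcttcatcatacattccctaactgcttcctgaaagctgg
ZIC2 chr13:99981534-99981833 (forward strand): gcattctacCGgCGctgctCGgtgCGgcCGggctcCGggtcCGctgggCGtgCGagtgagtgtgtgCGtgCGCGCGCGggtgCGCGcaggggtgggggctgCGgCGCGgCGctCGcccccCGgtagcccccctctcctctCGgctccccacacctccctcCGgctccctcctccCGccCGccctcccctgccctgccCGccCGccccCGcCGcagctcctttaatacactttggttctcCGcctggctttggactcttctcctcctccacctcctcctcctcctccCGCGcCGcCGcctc
ZIC5 chr13:99971860-99972159 (reverse strand): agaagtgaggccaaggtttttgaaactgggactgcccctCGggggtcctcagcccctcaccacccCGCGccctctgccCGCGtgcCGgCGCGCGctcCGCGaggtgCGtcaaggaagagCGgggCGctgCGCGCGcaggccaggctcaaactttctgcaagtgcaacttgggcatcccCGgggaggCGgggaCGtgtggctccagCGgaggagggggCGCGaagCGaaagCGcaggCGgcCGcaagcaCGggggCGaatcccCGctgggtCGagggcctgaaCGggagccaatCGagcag
The ZIC2 and ZIC5 promoters held 35 and 33 CG dinucleotides, more than 85.9% and 82.8% of the 35116 RefSeq promoters of this length, whose median was 14. The ZIC1 promoter held 26, more than 69.9% of them, and the ZIC4 promoter held 10, more than 43.6%. The base composition followed the same order, with 75.0% G and C in ZIC2, 70.3% in ZIC5, 61.3% in ZIC1 and 43.3% in ZIC4. ZIC4 and ZIC5 have further RefSeq starts whose promoters are not printed, and the ones shown are those nearest to the partner gene. The values depend on this choice, since the unprinted ZIC4 promoters held 21, 2 and 7 CG dinucleotides and those of ZIC5 held 18 and 22. Which start is used in these cells was not tested.
The CCAAT box, searched as CCAAT on both strands, occurred at 2 places in the ZIC1 promoter and at 1 in the ZIC5 promoter, and 34.6% of all promoters held it. The GC box, searched as GGGCGG on both strands, occurred at 4 places in the ZIC2 promoter and at 2 in the ZIC1 promoter, and 45.0% of all promoters held it. Neither the TATA box, searched as TATAAA and held by 11.5% of all promoters, nor the core of the ZIC motif, searched as CAGCAGG and held by 10.5%, occurred in any of the 4 windows. In the unprinted promoters CCAAT occurred at 2, 1 and 3 places for ZIC4 and at 1 and 4 places for ZIC5. GGGCGG occurred at 1 place in 1 unprinted promoter of ZIC4 and at 1 place in 1 of ZIC5. These matches describe letters only.

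ZIC1 was the most abundant ZIC gene in PP, PH and SC-β organoids. Its mean was 0.0219 TPM in hESCs, 0.194 TPM in DE, 0.00456 TPM in PGT, 17.2 TPM in PP, 173 TPM in PH and 73.7 TPM in SC-β organoids. It thus stayed below 1 TPM in hESCs, DE and PGT and was highest in PH. At 173 TPM it ranked 285 among the 49085 names in PH, above 99.4% of them, and it ranked 1306 in SC-β organoids and 6493 in PP. ZIC4, its divergent partner, was listed at 0 in hESCs and DE and had 0.00988 TPM in PGT, 4.46 TPM in PP, 39.5 TPM in PH and 28.3 TPM in SC-β organoids. The order of PP, SC-β and PH was the same for both genes. The TPM of ZIC1 was 3.85 times that of ZIC4 in PP, 4.38 times in PH and 2.60 times in SC-β organoids. ZIC4 ranked 2272 in PH and 4897 in SC-β organoids. ZIC4-AS1, an antisense transcript that lies within ZIC4, had 0.111 TPM in PP and was listed at 0 elsewhere.

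ZIC2 was present at all stages. Its mean was 10.9 TPM in hESCs, 44.7 TPM in DE, 4.75 TPM in PGT, 8.39 TPM in PP, 25.0 TPM in PH and 27.4 TPM in SC-β organoids. The highest value was in DE, where ZIC2 ranked 2901 among all names, and the lowest was in PGT, the next stage collected, where it ranked 12265. ZIC5, its divergent partner, had 4.99 TPM in hESCs, 9.88 TPM in DE, 3.90 TPM in PGT, 4.18 TPM in PP, 12.7 TPM in PH and 13.6 TPM in SC-β organoids. It was also lowest in PGT, but its highest value was in SC-β organoids rather than in DE. The values in SC-β organoids and PH were close for both genes, and their order depended on the scaling, since both genes were higher in PH once the stages had been rescaled by median ratios over 13938 names. ZIC2 was above ZIC5 in every stage, by 2.19 times in hESCs, 4.53 times in DE, 1.22 times in PGT, 2.01 times in PP, 1.97 times in PH and 2.01 times in SC-β organoids.

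**Figure D1:**
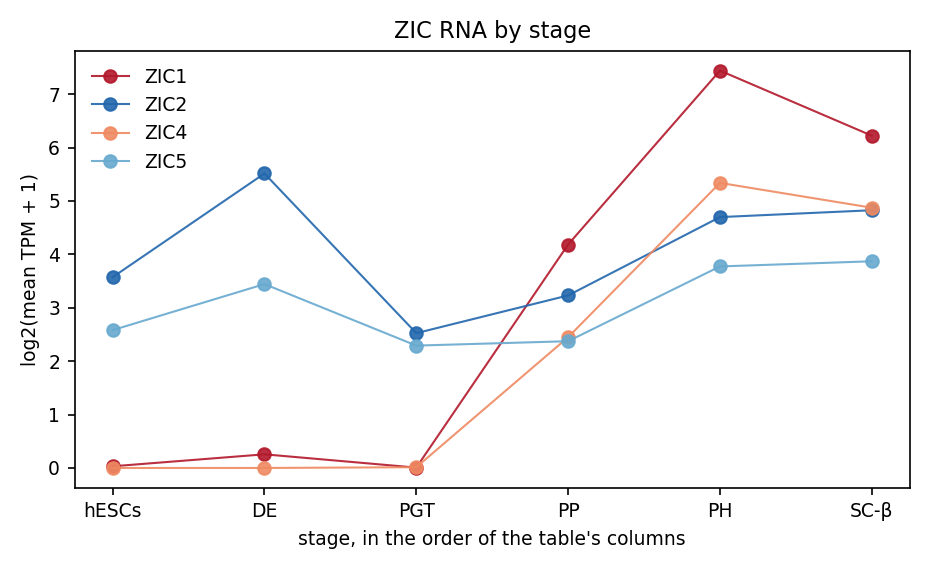
Mean TPM of ZIC1, ZIC2, ZIC4 and ZIC5 (vertical axis, log2(TPM + 1)) in the 6 stages in the order of the deposited columns, where each point is the authors' mean of 2 replicates and lines only join the points of a gene. ZIC1 and ZIC4 sit at or near 0 until PGT and peak in PH at 173 and 39.5 TPM, while ZIC2 and ZIC5 are above 3 TPM throughout.

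The makeup of ZIC RNA changed between PGT and PP. ZIC2 and ZIC5 together made up 99.9% of the summed ZIC TPM in hESCs, 99.6% in DE and 99.8% in PGT, but 36.7% in PP, 15.1% in PH and 28.7% in SC-β organoids. ZIC1 alone was 50.2% of the sum in PP, 69.1% in PH and 51.5% in SC-β organoids, and ZIC4 was 13.03%, 15.8% and 19.8% in the same stages. The share of ZIC2 was largest in DE, at 81.6%, and smallest in PH, at 9.99%, although its own TPM in PH was higher than in hESCs. ZIC5 had its largest share, 45.0%, in PGT, the stage in which its own TPM was lowest. The ZIC genes summed to 15.9 TPM in hESCs, 54.8 TPM in DE, 8.66 TPM in PGT, 34.2 TPM in PP, 249.9 TPM in PH and 143 TPM in SC-β organoids. These shares are ratios within a stage and do not depend on how the stages are scaled to each other.

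**Figure D2:**
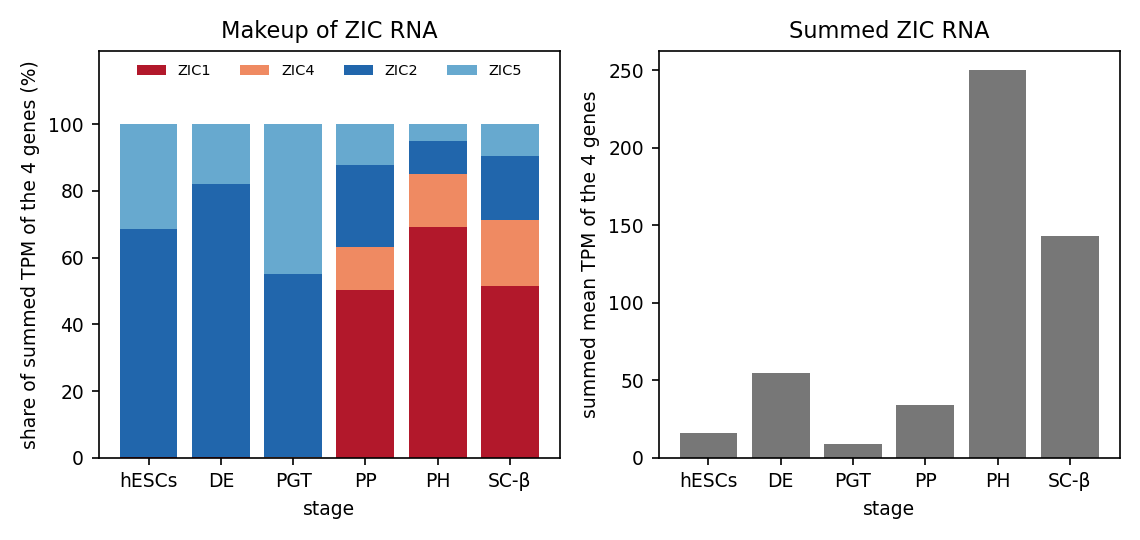
Left, share of each gene in the summed mean TPM of the 4 ZIC genes (percent) in each stage, and right, that summed TPM. ZIC2 and ZIC5 fill the bars of hESCs, DE and PGT, ZIC1 is the largest segment in PP, PH and SC-β organoids, and the sum is highest in PH at 249.9 TPM.

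Between hESCs and DE, ZIC2 was the 1 of 4 members that rose, by a log2 ratio of 1.94, or 4.10-fold in TPM. Of all names, 12.9% rose and 2.55% fell in this comparison, and among names at 1 TPM or more in either stage 94.9% had a lower ratio than ZIC2. ZIC5 had a log2 ratio of 0.86, just under 2-fold, and ZIC1 one of 0.22. ZIC4 was listed at 0 in both.
Between DE and PGT, ZIC2 fell by 2.99 on the log2 scale, a 9.41-fold lower TPM, and ZIC5 fell by 1.15, a 2.54-fold lower TPM. These are 2 of 4 members, against 4.92% of all names that fell and 2.30% that rose. In only 0.735% of the names at 1 TPM or more in either stage was the ratio below that of ZIC2. ZIC1 had a log2 ratio of -0.25, from 0.194 to 0.00456 TPM, and ZIC4 did not reach 0.01 TPM in either stage. Measured against hESCs, PGT held 1 member that fell, ZIC2 with a log2 ratio of -1.05, while 10.1% of all names rose and 4.34% fell. The ratio of ZIC5 was -0.29.

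Between PGT and PP the pairs parted. ZIC1 rose by a log2 ratio of 4.18 and ZIC4 by 2.43, so that 2 of 4 members rose in a comparison in which 2.74% of all names rose and 3.25% fell. Of the names at 1 TPM or more in either stage, 99.9% had a lower ratio than ZIC1 and 99.0% a lower one than ZIC4. ZIC2 had a log2 ratio of 0.71 and ZIC5 one of 0.08, both under 2-fold. Against hESCs, the same 2 members had risen in PP, ZIC1 by a log2 ratio of 4.15 and ZIC4 from a listed 0, beside 7.98% of all names that rose and 4.06% that fell. ZIC2 and ZIC5 were slightly below their hESC level in PP, with log2 ratios of -0.34 and -0.21, which is less than 2-fold.

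In PH, all 4 members had risen over PP. The log2 ratio was 3.26 for ZIC1 (10.1-fold in TPM), 2.89 for ZIC4 (8.85-fold), 1.47 for ZIC2 (2.97-fold) and 1.40 for ZIC5 (3.03-fold). By comparison, 5.14% of all names rose and 5.73% fell. Against hESCs, all 4 had also risen in PH, ZIC1 by a log2 ratio of 7.41, ZIC5 by 1.19, ZIC2 by 1.13 and ZIC4 from a listed 0, beside 12.1% of all names that rose and 8.35% that fell. The ratio of ZIC1 was above that of 99.97% of the names at 1 TPM or more in either stage, whereas the ratios of ZIC2 and ZIC5 were above 76.8% and 78.7% of them.

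All 4 members rose between PP and SC-β organoids as well. ZIC4 had the largest log2 ratio, 2.43 (6.35-fold in TPM), followed by ZIC1 with 2.04 (4.29-fold), ZIC2 with 1.60 (3.26-fold) and ZIC5 with 1.50 (3.26-fold). In this comparison 10.6% of all names rose and 0.939% fell. Over hESCs the log2 ratios in SC-β organoids were 6.19 for ZIC1, 1.29 for ZIC5 and 1.25 for ZIC2, and ZIC4 was listed at 0 in hESCs, so that all 4 had risen beside 22.2% of all names that rose and 3.70% that fell. The ratios of ZIC2 and ZIC5 were above 69.4% and 70.7% of the names at 1 TPM or more in either stage. After the median-ratio rescaling their ratios were 0.76 and 0.83, under 2-fold, and only ZIC1 and ZIC4 kept the call. Set against PH, the 1 member that fell in SC-β organoids was ZIC1, whose log2 ratio was -1.22 and whose TPM was 2.35-fold lower, while 14.7% of all names rose and 2.41% fell. ZIC4 had a log2 ratio of -0.46, ZIC2 one of 0.13 and ZIC5 one of 0.10. The comparisons above share stage columns with each other, and each count covers 4 genes. The shares over all names include names below 1 TPM in both stages, which cannot reach 2-fold on this scale. Among names at 1 TPM or more in either stage, 28.2% rose over hESCs in DE and 18.9% in PP. The share was 27.3% in PH and 42.4% in SC-β organoids. By the same measure, 10.6% fell in PGT against DE and 10.0% against hESCs, and 6.30% rose in PP over PGT. Over PP, 11.5% rose in PH and 20.7% in SC-β organoids.

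**Figure D3:**
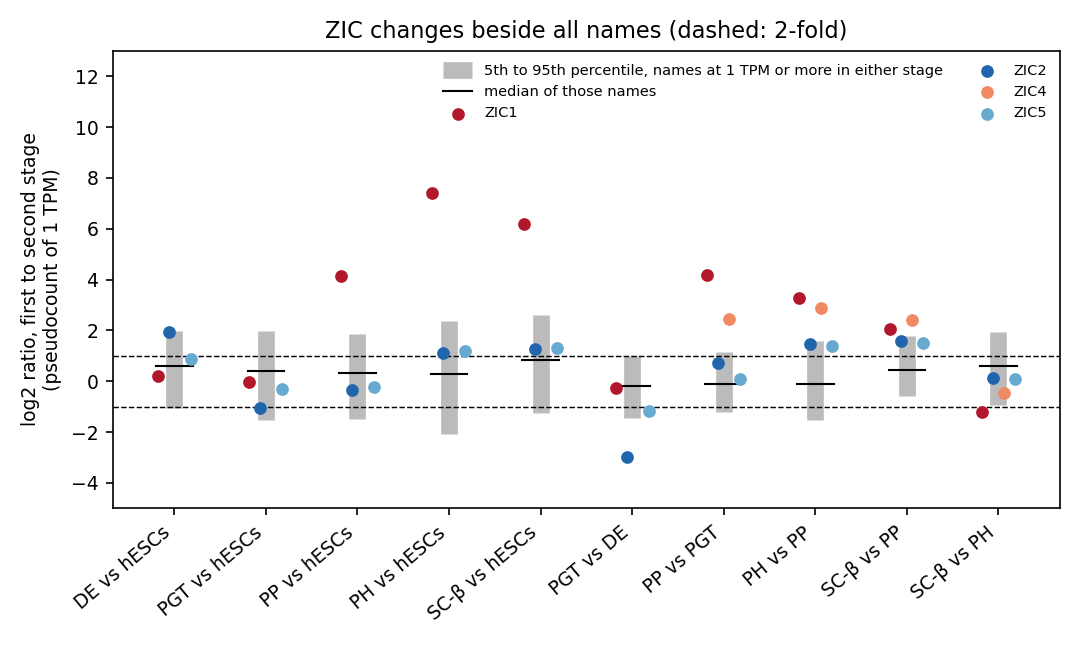
Log2 ratios of the ZIC genes (points) in 10 comparisons of stages, with grey bars from the 5th to the 95th percentile and black lines at the median of the names at 1 TPM or more in either stage, and dashed lines at 2-fold; ZIC4 has no point where a stage lists it at 0. ZIC1 lies far above the bars in PP, PH and SC-β against hESCs (4.15, 7.41 and 6.19), and ZIC2 lies below the bar in PGT against DE (-2.99).

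Across the 6 stages the members of a pair had more similar profiles than members of different pairs. Pearson's r of log2(TPM + 1) was 0.993 between ZIC1 and ZIC4 and 0.886 between ZIC2 and ZIC5. Between the pairs it was 0.334 for ZIC1 and ZIC2, 0.358 for ZIC2 and ZIC4, 0.628 for ZIC1 and ZIC5 and 0.677 for ZIC4 and ZIC5. Spearman's rho, which uses ranks only, was 0.812 for ZIC1 and ZIC4 and 0.829 for ZIC2 and ZIC5. Between the pairs rho was 0.771 for ZIC1 and ZIC5, close to the values within the pairs. It was 0.486 for ZIC1 and ZIC2, 0.464 for ZIC4 and ZIC5 and 0 for ZIC2 and ZIC4. All of these are descriptions over 6 points that share the same columns and scaling. Among 14779 names that reached 5 TPM in some stage, ZIC4 was in place 9 of those most like ZIC1 and ZIC1 in place 14 for ZIC4, whereas ZIC5 was in place 57 for ZIC2 and ZIC2 in place 130 for ZIC5.

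The 5 names most like ZIC1 were HOXA5, HOXD4, SLIT1, CNIH2 and HOXD3, with r from 0.996 to 0.999. HOXA5, a homeobox gene that patterns the body axis, was listed at 0 in hESCs, DE and PGT and had 12.8 TPM in PP, 79.3 TPM in PH and 47.4 TPM in SC-β organoids. SLIT1, a secreted axon guidance protein, stayed below 1 TPM until PGT and had 65.1 TPM in PH and 44.7 TPM in SC-β organoids. Most like ZIC4 were HOXB-AS2, PENK, HOXD4, AP4B1 and C2CD2L, with r from 0.996 to 0.999. PENK, which encodes the precursor of the enkephalin peptides, had 0.435, 0.100, 0.0489, 10.8, 139 and 99.9 TPM in the same order. HOXD4 stood in both sets, listed at 0 until PGT and at 4.87 TPM in PP, 42.9 TPM in PH and 21.4 TPM in SC-β organoids.
For ZIC2 the most similar names were ATPAF2, PDXP, BBS4, GNB1 and STK32A, with lower r, from 0.952 to 0.971. ATPAF2, an assembly factor of the mitochondrial ATP synthase, spanned only 10.4 TPM in PGT to 23.4 TPM in DE. For ZIC5 they were LTBP4, FNIP1, BCOR, SGCB and TOP2B, with r from 0.981 to 0.995. LTBP4, a matrix protein that binds latent TGF-β, had 8.41, 24.5, 7.35, 7.15, 34.3 and 32.8 TPM in hESCs, DE, PGT, PP, PH and SC-β organoids. BCOR, a transcriptional corepressor, had its lowest value, 12.2 TPM, in PGT and its highest, 29.1 TPM, in SC-β organoids.

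The genes on either side of the pairs did not share one profile. Not all of them are close to a ZIC gene. On chromosome 3, PLSCR5 covers positions 146576555 to 146605346 and AGTR1 covers 148697784 to 148743008. On chromosome 13, NALCN covers 101053776 to 101416508. Beside ZIC4 and ZIC1 on chromosome 3, PLSCR1, a phospholipid scramblase induced by interferon, had 36.5, 101.3, 14.1, 25.1, 8.32 and 25.3 TPM in hESCs, DE, PGT, PP, PH and SC-β organoids, with its lowest value in PH, where ZIC1 was highest. PLSCR4 had its highest value, 7.35 TPM, in DE and 1.67 TPM in hESCs. AGTR1, the angiotensin II receptor on the other side of the pair, was highest in PP, at 6.16 TPM, and had 0.287 TPM in PH. PLSCR2, PLSCR5 and CPB1 stayed below 1 TPM in every stage, and so did NALCN, a sodium leak channel beside the other pair.
Beside ZIC5 and ZIC2 on chromosome 13, CLYBL, a mitochondrial enzyme of the vitamin B12 pathway, had 4.92, 9.99, 1.62, 5.42, 4.00 and 18.9 TPM in the same order, low in PGT like both ZIC genes and highest in SC-β organoids. PCCA, a subunit of propionyl-CoA carboxylase that begins downstream of ZIC2, had its highest value, 52.6 TPM, in DE and lay between 30.9 and 42.7 TPM elsewhere. TM9SF2, a membrane protein of the Golgi and endosomes, lay between 54.4 TPM in PH and 101.9 TPM in PGT, the stage in which ZIC2 and ZIC5 were lowest. TMTC4, a protein of the endoplasmic reticulum, had its lowest value in hESCs, 16.4 TPM, and its highest in PH, 47.0 TPM. GGACT was highest in DE, at 2.06 TPM. Of the 12 neighbours measured, 3 rose in SC-β organoids over hESCs and none fell, the median log2 ratio being 0.65 beside 0.23 over all names, and 1 rose and 1 fell in PH. These are shares near those of all names given above, 22.2% for a rise in SC-β organoids. The number that rose in SC-β organoids was 8 with a pseudocount of 0.1 TPM and 5 without the 100 most abundant names, and in PH it was 4 under both, and 1 neighbour fell in SC-β organoids after the median-ratio rescaling.

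**Figure D4:**
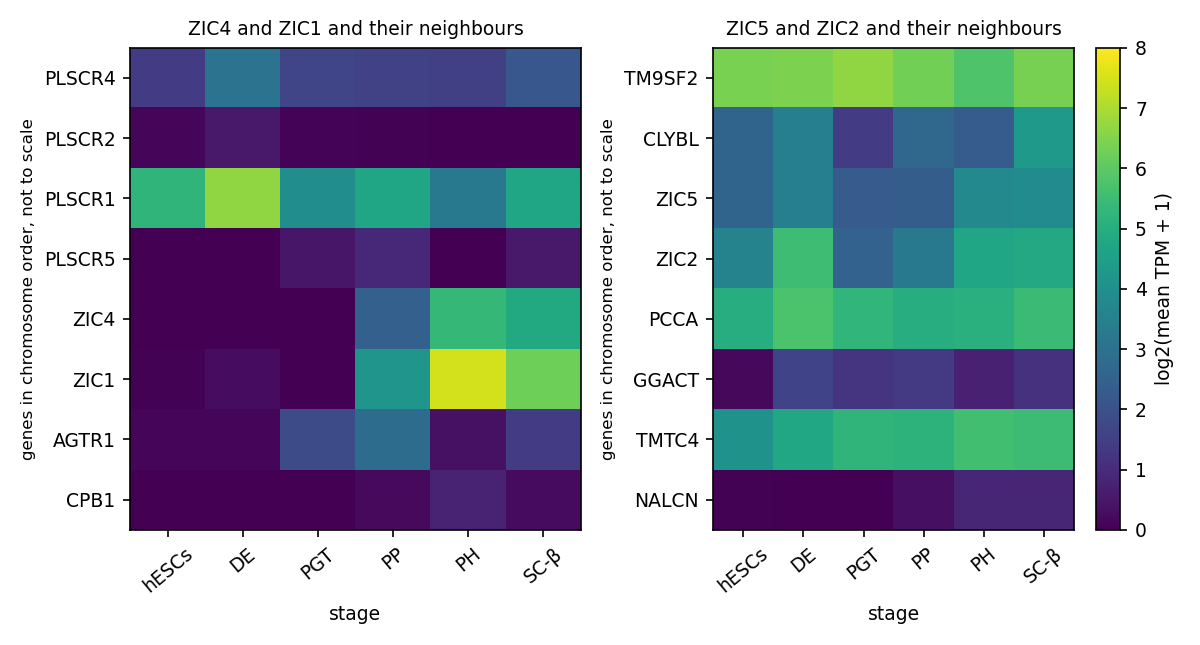
Mean TPM on a log2(TPM + 1) colour scale of the ZIC pairs and the genes around them, in chromosome order but not to distance, in the 6 stages. ZIC4 and ZIC1 are brighter in PP, PH and SC-β organoids than in the other stages, between neighbours that stay dark or are brightest in DE or PP. ZIC2 is brightest in DE, where PCCA beside it also has its highest value, 52.6 TPM.

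The GLI and GLIS genes, zinc finger relatives of the ZIC genes, differed among themselves. Of the 6 GLI and GLIS genes, 4 rose and none fell in PH over hESCs (median log2 ratio 1.22, beside 0 over all names), and 4 rose and none fell in SC-β organoids (median 1.33, beside 0.23). In the other stages the calls went both ways, with 1 gene up and 1 down in DE, 1 up and 2 down in PGT, and 2 up and 1 down in PP. GLI3, which acts mostly as a repressor in the absence of Hedgehog signal, had 2.71, 2.13, 3.54, 18.3, 18.8 and 78.9 TPM in hESCs, DE, PGT, PP, PH and SC-β organoids. Like ZIC1, GLI3 was thus higher in PP, PH and SC-β organoids than in the other stages. GLI1, whose transcription is a common readout of Hedgehog signalling, went the other way in PP, with 0.747 TPM against 11.1 TPM in hESCs, and had 7.003 TPM in PH and 15.0 TPM in SC-β organoids. GLI2, the main activator, was highest in PH, at 20.6 TPM. GLIS3, known for its part in β-cell development, was highest in SC-β organoids, at 43.1 TPM, and had 2.66 TPM in PH.

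ZIC genes mark neural and crest tissue in the embryo, and markers of those tissues were also measured. Of 15 genes of the neural plate border and neural crest, the number that rose over hESCs was 2 in DE, 9 in PGT, 11 in PP, 11 in PH and 10 in SC-β organoids, and the number that fell was 2, 3, 1, 2 and 1. Their median log2 ratio was 3.09 in PP, 2.77 in PH and 3.28 in SC-β organoids, beside 0.04, 0 and 0.23 over all names. The list did not follow the ZIC genes in every step, since in PGT, where 9 of it rose over hESCs, no ZIC gene had risen, and over PP, where all 4 ZIC genes rose, 3 of it rose and 4 fell in PH (median -0.05) while 3 rose and 3 fell in SC-β organoids (median 0.14). PAX3, a regulator of the dorsal neural tube and crest that is expressed with ZIC1 at the plate border, had 0.214, 0.622, 1.58, 30.9, 97.3 and 72.6 TPM in hESCs, DE, PGT, PP, PH and SC-β organoids. Its order of PP, SC-β and PH was the same as that of ZIC1. TFAP2B was listed at 0 in hESCs and DE and had 37.0 TPM in PP, 37.4 TPM in PH and 5.42 TPM in SC-β organoids. MSX1, a homeobox gene of the plate border, had already reached 11.2 TPM in PGT, where ZIC1 was at 0.00456 TPM, and was at 61.4 TPM in SC-β organoids. GBX2 was highest in PH, at 31.3 TPM, against 3.75 TPM in PP and only 1.55 TPM in SC-β organoids. SOX10, a defining gene of crest cells, was at 8.69 TPM in PP, 0.318 TPM in PH and 0.649 TPM in SC-β organoids. FOXD3, another crest marker, differed from SOX10 in PH. It had 5.80 TPM in hESCs, 9.72 TPM in PP, 10.5 TPM in PH, its highest value, and 0.353 TPM in SC-β organoids. The summed TPM of the list was 57.3, 40.8, 97.5, 281, 299 and 349 in the order of the stages, with TFAP2B, DLX5 and DLX6 listed at 0 in hESCs, TFAP2B in DE, and PAX7 and SOX10 in PGT.

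Of 11 neural progenitor genes, 9 rose and none fell in PH over hESCs, with a median log2 ratio of 3.46. DE had 2 that rose and 3 that fell, PGT 1 and 3, and both PP and SC-β organoids 5 and 1. By comparison, 12.9% of all names rose in DE, 10.1% in PGT, 7.98% in PP, 12.1% in PH and 22.2% in SC-β organoids. Over PP, 10 of the 11 rose in PH and 4 in SC-β organoids, where 2 fell, beside 5.14% and 10.6% of all names that rose. HES5, a target of Notch signalling in neural stem cells, had 109.8 TPM in PH and at most 1.51 TPM in any other stage. POU3F2, a POU domain factor of neural cells, had 24.7 TPM in PH, 2.25 TPM in SC-β organoids and 5.87 TPM in PP. SOX2, which marks both pluripotent cells and neural progenitors, had 132.8, 22.4, 1.70, 68.2, 108.7 and 50.9 TPM, with its minimum in PGT like ZIC2 and ZIC5. DACH1 had 13.2 TPM in PP, 27.7 TPM in PH and 41.4 TPM in SC-β organoids, against 0.803 TPM in hESCs. The summed TPM of the list was 269, 107.7, 43.9, 171, 523 and 247 in the order of the stages. In the same order, 4, 5, 4, 8, 11 and 8 of its genes reached 1 TPM, with SOX1, a gene largely confined to the neural plate and its progeny, at 5.42 TPM in PH and 0.462 TPM in SC-β organoids. SOX1 was listed at 0 in hESCs, HES5 and NEUROG2 in DE, and all 3 of these in PGT.
Of 11 genes of the roof plate and dorsal neural tube, 10 rose in PH and 8 in SC-β organoids and none fell, with median log2 ratios of 1.47 and 2.65. Of all names, 12.1% and 22.2% rose in these comparisons with hESCs. At 4-fold, 3 of the 11 genes rose in PH and 7 in SC-β organoids. In DE 1, in PGT 3 and in PP 4 of them rose at 2-fold. With a pseudocount of 0.1 TPM, 7 rose and 1 fell in PP. Over PP, 3 rose in PH and 6 in SC-β organoids, where 1 fell. Most were highest in SC-β organoids rather than in PH, among them LMX1A, a roof plate regulator, with 1.19 TPM in PH and 32.2 TPM in SC-β organoids, GDF7, a roof plate ligand, with 1.64 and 27.7 TPM, and RSPO3, an enhancer of WNT signals, with 3.00 and 26.6 TPM. OLIG3, a factor of dorsal neural progenitors, was highest in PH like ZIC1, with 11.8 TPM in PP, 20.3 TPM in PH and 3.94 TPM in SC-β organoids. The summed TPM of the list was 2.64, 6.44, 21.7, 24.7, 46.1 and 119 in the order of the stages. WNT1, a signal of the dorsal midline, was listed at 0 in hESCs, DE and PGT.

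More mesenchymal genes had risen over hESCs in PP, PH and SC-β organoids than in DE and PGT. Of 14 genes of mesenchyme and paraxial mesoderm, 3 rose in DE, 1 rose and 1 fell in PGT, and 7 rose in PP, 10 in PH and 12 in SC-β organoids, where none fell. The median log2 ratio was 1.32 in PP, 2.07 in PH and 2.92 in SC-β organoids. TWIST1 had 9.40 TPM in PP, 25.9 TPM in PH and 89.7 TPM in SC-β organoids. PRRX1 had 16.4, 52.9 and 213 TPM and the fibrillar collagen gene COL3A1 had 14.9, 349 and 771 TPM in the same stages. Both were higher in SC-β organoids than in PH, whereas ZIC1 was lower. COL1A1, another collagen gene of the list, had 4.46, 42.9 and 34.1 TPM in these stages and was highest in PH, like ZIC1. PDGFRA, a growth factor receptor of mesenchyme, had 62.0 TPM in PGT, before ZIC1 and ZIC4 were detected above 1 TPM. The summed TPM of the list was 14.5, 29.9, 72.8, 72.4, 553 and 1396 in the order of the stages, and MYF5 was listed at 0 in every stage but DE. The part of neural, crest or mesenchymal cells in the ZIC levels was not tested.

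Of 11 primed pluripotency genes, 2 rose and 6 fell in DE, 7 fell in PGT, and all 11 fell in PP, PH and SC-β organoids, with a median log2 ratio of -5.57 in PH. The share of all names that fell was 2.55% in DE, 4.34% in PGT, 4.06% in PP, 8.35% in PH and 3.70% in SC-β organoids. Unlike this list, ZIC2 and ZIC5 had risen over hESCs in PH and SC-β organoids as given above. POU5F1, the core pluripotency factor, had 1449, 417, 25.4, 0.543, 0.425 and 0.377 TPM in the order of the stages. OTX2, a factor of primed cells and of anterior ectoderm and endoderm, had 22.1 TPM in hESCs, 229 TPM in DE and 23.9 TPM in PGT, a peak in DE like that of ZIC2, but it was at 0.0554 TPM in PH and 0.0805 TPM in SC-β organoids. LIN28A, an RNA-binding protein of early cells, had 724, 772, 516 and 169 TPM in hESCs, DE, PGT and PP, 0.0162 TPM in PH and 27.5 TPM in SC-β organoids. The summed TPM of the list was 3849.9, 2559, 907, 348, 97.9 and 109.8 in the order of the stages.
Of 15 genes other than ZIC2 whose variants are tied to holoprosencephaly or to its pathways, 8 rose and 1 fell in DE, with a median log2 ratio of 1.02 beside 0.12 over all names. The number that rose was 2 after the median-ratio rescaling and 0 at 4-fold. In the other stages the list was split, with 6 up and 4 down in PGT, 5 and 3 in PP, 7 and 6 in PH, and 6 and 5 in SC-β organoids. FOXH1, a partner of the SMADs that act in Nodal signalling, had 21.9, 57.8, 12.6, 0.109, 0.0483 and 0.141 TPM, with a peak in DE like that of ZIC2. NODAL, its ligand, had 181 TPM in hESCs and 31.3 TPM in DE. TDGF1, the Nodal coreceptor, had 293 TPM in DE and 5.61 TPM in PGT. DLL1, a Notch ligand, was highest in PH, at 76.5 TPM, against 8.10 TPM in PP and only 4.20 TPM in SC-β organoids.

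The labels of the pancreatic stages were checked against their markers. Of 12 genes of pancreatic endoderm and endocrine cells, the number that rose over hESCs was 5 in DE, 4 in PGT, 10 in PP, 5 in PH and 11 in SC-β organoids, and 1 fell in each of them but DE. In the same comparisons 12.9%, 10.1%, 7.98%, 12.1% and 22.2% of all names rose. SOX17, which marks definitive endoderm, was highest in DE, at 96.1 TPM, and FOXA1 and HNF4A were highest in PGT, at 86.0 and 33.7 TPM. PDX1 and NKX6-1, which define pancreatic progenitors, were at 3.17 and 2.204 TPM in PP, well below ZIC1 there. In PH they were at 0.0173 and 0.256 TPM, and SOX17 and NKX2-2 were listed at 0. GCG, INS and CHGA were highest in SC-β organoids, at 2793, 298 and 805 TPM, where ZIC1 was at 73.7 TPM, and PH had 27.2, 6.86 and 70.0 TPM. The summed TPM of the list was 9.18, 209, 192, 299, 111.7 and 3967 in the order of the stages. PH was the stage with the highest summed ZIC and neural progenitor TPM, and its pancreatic sum was below those of DE, PGT, PP and SC-β organoids. Whether the ZIC RNA of SC-β organoids comes from endocrine or from other cells was not tested.

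**Figure D5:**
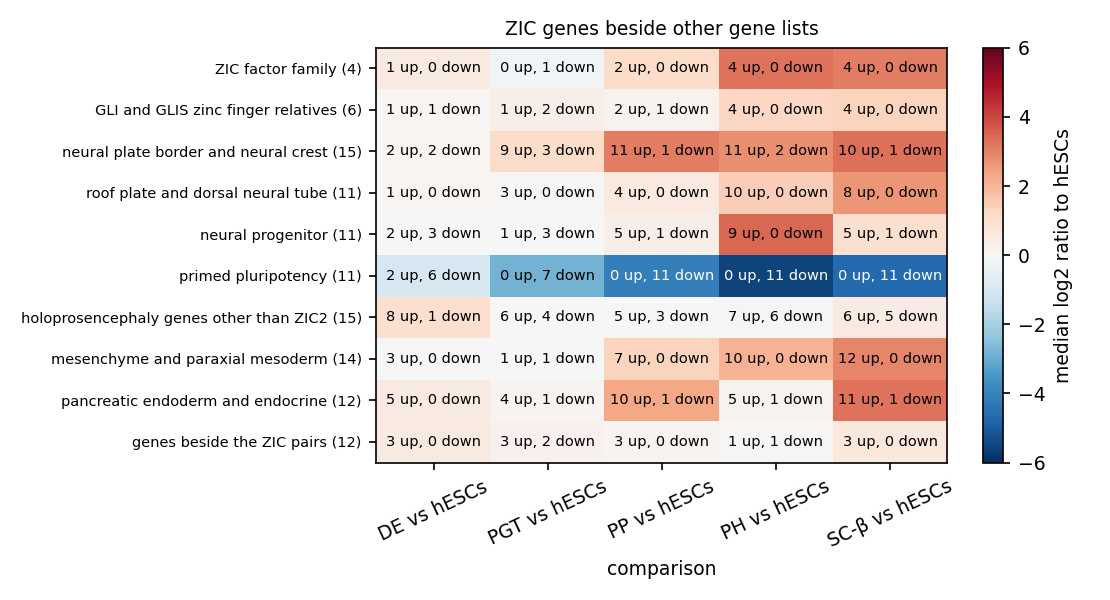
Median log2 ratio to hESCs (colour) and number of genes at least 2-fold up or down (text) for the 4 ZIC genes and 9 other gene lists (rows, with the number of genes) in 5 comparisons with hESCs (columns). The ZIC row is deepest red in PH and SC-β organoids, with 4 up and 0 down, the neural progenitor row is deepest in PH, with 9 up, and the pluripotency row is blue.

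Since the ZIC genes are paralogs, reads could in principle be shared among them. Of the 50-base sequences in the GENCODE transcripts of each gene, none of the 3272 of ZIC2 and none of the 4448 of ZIC5 occurred in any other gene. For ZIC1, 128 of 6817 (1.88%) occurred in another gene, ZIC4, and for ZIC4, 299 of 8734 (3.42%) occurred in any other gene, all of them on the opposite strand. Reads were 50 bp long and paired. The labels name a strand-specific kit, but whether strand was used when transcripts were quantified is not given in the sources used here, so reads from the stretch in which ZIC1 and ZIC4 overlap could not be assigned with certainty.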

How the data were processed

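RNA was extracted with Trizol and sequenced as 50 bp paired-end reads from 12 samples of H9 cells and their derivatives, 2 replicates for each of 6 stages, among 148 samples of the series. The labels name both a RiboMinus removal of ribosomal RNA and a TruSeq Stranded mRNA kit. The authors aligned the reads to hg38 and deposited TPM per gene, averaged over the replicates. The submitters' processing notes name HISAT2 2.2.0 and StringTie 2.1.6, and the annotation is not given in the sources used here. The authors' differential expression used edgeR, which was not repeated here because the table holds stage means. The other assays were not analysed here.

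The table's 50451 entries were summed to 49085 names (231 had more than 1 entry). Log2 ratios used a pseudocount of 1 TPM and calls a 2-fold threshold. Named genes were the 4 members, the 4 genes of each list with the widest range of log2(TPM + 1), the measured neighbours, the 5 names most like each member by Pearson's r, and fixed stage and cell type markers. Members and lists were chosen with earlier results of these data known, and some genes of the lists are not reported here. Which of the similar names have values printed was decided after their values were seen. Alternatives were a pseudocount of 0.1 TPM, median-ratio rescaling, totals without the 100 most abundant names and the mitochondrial genes, the highest entry of a repeated name, a 1 TPM minimum in either stage, a 4-fold threshold, and likeness without PH. Calculations were tested on simulated data. Promoters came from RefSeq (GRCh38.p14) and positions from GENCODE version 44 on hg38. Python 3.11.15 was used with numpy 2.4.6, pandas 2.3.3 and matplotlib 3.10.9.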

Additional observations from a re-analysis of the deposited data

How the results depend on the processing

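The columns are means of 2 replicates, so no result has a spread, a depth or a replicate left out. No paired analysis was possible because the deposited columns hold stage means, not single replicates. Of 120 counts of members that rose or fell under the alternatives, 110 stayed within 1.5 times the value in the report. Counts of 0 that stayed at 0 are among them. Keeping the highest entry could not change these counts, since each member has a single entry. Nor could the 1 TPM minimum, since a 2-fold call with a pseudocount of 1 TPM already needs 1 TPM. The 110 therefore overstate how far the counts were tested. With a pseudocount of 0.1 TPM, 2 members rose in DE over hESCs, the second being ZIC1, with a log2 ratio of 1.27 between values under 0.2 TPM. With median-ratio rescaling, which took out log2 shifts of -0.27 (hESCs) to 0.25 (SC-β) and so raised the values of hESCs and lowered those of SC-β organoids, 2 members rose in SC-β organoids over hESCs. At 4-fold, 0 members rose in DE and 0 fell in PGT over hESCs, 2 rose in PH and 2 in SC-β organoids over hESCs, 1 fell in PGT against DE, 2 rose in PH and 2 in SC-β organoids over PP, and 0 fell in SC-β organoids against PH. The highest value of ZIC2 stayed in DE, with a log2 ratio of DE to SC-β of 0.72 with rescaling and 0.66 without the 100 most abundant names, beside 0.69 in the values as deposited. PH, not SC-β, came next to DE for ZIC2 and first for ZIC5 under both, with log2 ratios of SC-β to PH for ZIC5 of -0.36 and -0.34. No member changed direction past 2-fold under any of these alternatives. Of 540 counts over the other lists, 471 stayed within 1.5 times. The 1 TPM minimum could not change these counts either, and keeping the highest entry changed none of them. Of 8 sets of names most like a member, 6 changed.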

Other observations

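The profile shared by ZIC1 and ZIC4, below 1 TPM in hESCs, DE and PGT and at 4 TPM or more in PP, PH and SC-β organoids, was looked for in the whole table after their values were seen. It was found in 79 of 49085 names, ZIC1 and ZIC4 included, and 38 of these, again with both, had their highest value in PH. HOX genes, the homeobox genes that set position along the body axis, were 13 of the 79 (16.5%), and these 13 were 36.1% of the 36 HOX genes in the table. Of the 13, 11 were highest in PH. ZIC1 was in place 4 of the 79 by its TPM in PH and ZIC4 in place 29. INS and GCG had the same profile but were highest in SC-β organoids. The profile of ZIC2, at least 2-fold up from hESCs to DE, 2-fold down from DE to PGT and 2-fold up from PGT to SC-β organoids, was found in 357 names.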
